A study of Mus musculus with 6 samples.

Results

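The vascular endothelial growth factor (VEGF) family was examined in mouse embryonic endothelial eEnd2 cells that express an integrin β1 either in its wildtype form or with the acetyl-mimetic K794Q change. The 10 genes were taken by symbol from the 23420 symbols of the count table, and all 10 were found. They are 5 ligands (Vegfa, Vegfb, Vegfc, Figf, which encodes VEGF-D, and Pgf, which encodes placental growth factor), 3 receptor tyrosine kinases (Flt1, Kdr and Flt4, which encode VEGFR1, VEGFR2 and VEGFR3) and 2 neuropilins (Nrp1 and Nrp2).

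Both groups were stably transfected eEnd2 cells carrying a human integrin β1A with an eGFP in its extracellular part, driven by a short human actin promoter next to a matrix attachment region. The control group, β1-WT-GFP, carried the wildtype chimera and the other group, β1-K794Q-GFP, carried glutamine in place of the lysine of the cytoplasmic tail, so no group without a chimera enters the comparison. Total RNA of 3 confluent cultures per group, lettered A, B and C, was sequenced after removal of ribosomal RNA. Cells had been sorted into populations of low and high GFP and grown on, and the labels do not name which population each culture came from, nor do they give the cultures separate transfections; p-values therefore measure only the spread between these cultures.

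VEGF ligands are secreted dimers. VEGF-A binds VEGFR1 and VEGFR2, and VEGFR2 carries most of its signal for endothelial growth, migration and permeability, whereas VEGF-B and placental growth factor bind VEGFR1, a receptor with high affinity and weak kinase signalling that can hold VEGF-A away from VEGFR2. VEGF-C and VEGF-D bind VEGFR3 and, once processed, VEGFR2, and the neuropilins are co-receptors that also bind class 3 semaphorins.

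Totals lay between 9589826 and 15287191 counts per culture, so that 3 counts correspond to 0.196 to 0.313 CPM, the unit of counts scaled by library size used below. Some cultures stood apart from others of their group. The β1-WT-GFP cultures A and B were 2-fold or more apart in 65 of 11608 tested genes, while culture C differed that much from them in 2701 and 2539 genes. All tests below count A and B as separate cultures, although their independence was not established. Among the β1-K794Q-GFP cultures, A and C were 2-fold apart in 903 genes, and culture B differed from them in 2001 and 2562. Between the groups the distances ran from 1633 genes (culture A of each group) to 2950 (β1-K794Q-GFP culture B and β1-WT-GFP culture C). Some cultures thus lay as far from others of their own group as from the other group. Member fold changes that rest on WT culture C or K794Q culture B, as these are called from here on, are given with and without that culture. Values per culture stand in the order A, B, C. Of 14 endothelial markers, Pecam1 (1779 to 2818 CPM) and Cdh5 (1294 to 3994 CPM) were high in all cultures and Vwf did not exceed 2.41 CPM. The marker Cldn5, a tight junction gene, was uneven, with 17.5, 0 and 24.3 CPM in the K794Q cultures and 267, 252 and 4.74 CPM in the WT cultures. The 6 epithelial markers summed to at most 0.592 CPM, and the 7 leukocyte markers to 31.9 to 104 CPM, most of it Cd68 (31.0 to 103 CPM). Csf1r, a further leukocyte marker, had 153 counts in WT culture C and at most 9 elsewhere, and Ptprc had 4 counts there and 0 elsewhere. Itgb1, the mouse counterpart of the chimera, had 1146, 2677 and 1180 CPM in the K794Q cultures and 733, 915 and 1354 CPM in the WT cultures, with overlap between the groups, and reads of the human chimera cannot be separated from it here.

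Because the results turn on the member past the thresholds (Pgf), on a pair set apart in K794Q culture B (Vegfc and Flt1) and on the most abundant receptor gene (Kdr), the 250 bases before a transcript start that RefSeq (build GRCm38.p6) gives for each of these 4 genes are printed, each 5′ to 3′ on the strand of its gene. The window of Pgf is chr12:85177314-85177563 on the minus strand, that of Vegfc chr8:54077282-54077531 on the plus strand, that of Flt1 chr5:147726012-147726261 on the minus strand and that of Kdr chr5:75978456-75978705 on the minus strand. The Pgf window lies inside the GENCODE gene, which reaches up to base 85177790. Capitals mark the letters GGAA, the core bound by ETS factors, on either strand (TTCC on the printed one).
Pgf: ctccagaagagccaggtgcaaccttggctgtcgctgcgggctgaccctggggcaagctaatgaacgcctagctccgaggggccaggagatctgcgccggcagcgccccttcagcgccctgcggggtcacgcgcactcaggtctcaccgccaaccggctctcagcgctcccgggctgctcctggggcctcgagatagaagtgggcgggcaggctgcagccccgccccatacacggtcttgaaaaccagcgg
Vegfc: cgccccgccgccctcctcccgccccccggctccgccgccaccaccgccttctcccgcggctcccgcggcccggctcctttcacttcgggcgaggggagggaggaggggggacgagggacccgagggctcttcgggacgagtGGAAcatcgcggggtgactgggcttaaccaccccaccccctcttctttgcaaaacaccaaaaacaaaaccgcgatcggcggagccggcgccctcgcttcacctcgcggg
Flt1: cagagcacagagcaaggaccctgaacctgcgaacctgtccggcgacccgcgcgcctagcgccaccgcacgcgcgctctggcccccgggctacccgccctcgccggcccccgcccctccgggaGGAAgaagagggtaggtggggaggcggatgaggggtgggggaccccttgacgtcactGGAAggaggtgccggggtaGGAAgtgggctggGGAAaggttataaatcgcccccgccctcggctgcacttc
Kdr: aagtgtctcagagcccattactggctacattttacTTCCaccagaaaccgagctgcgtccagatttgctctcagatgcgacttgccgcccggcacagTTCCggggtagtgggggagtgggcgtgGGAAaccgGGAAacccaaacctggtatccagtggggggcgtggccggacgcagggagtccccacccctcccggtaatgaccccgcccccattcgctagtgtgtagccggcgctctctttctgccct
The Flt1 and Kdr windows each held 4 GGAA matches, the Vegfc window 1, and neither of the 2 windows that RefSeq gives for Pgf held any. Of 32851 windows of the same length, 93.4% held at least 1 match, with a median of 3. The letters ACGTG, the core bound by hypoxia-inducible factors, were searched on both strands as well. They were found in 1 of the 12 windows of the 10 genes, a window within the Vegfa gene, beside 16.6% of all windows. A match is a description of these letters only.

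The question was which ligands and receptors of the family differed between β1-K794Q-GFP and β1-WT-GFP cells. Pgf was the 1 member that passed both thresholds of the comparison, 2-fold or more and a p no larger than 0.05 before adjustment, out of 9 members with enough counts to be tested. It was higher in β1-K794Q-GFP cells. Over all 11608 tested genes, 5.19% passed in either direction, 3.48% with a rise and 1.71% with a fall in the mutant, and 0.181% passed at an adjusted p of 0.05, among them 0 members (1 member at an unadjusted p of 0.05, and 1, Pgf, after adjustment in DESeq2 or in edgeR's likelihood ratio test). Adjusted p-values of the members from edgeR's quasi-likelihood test ranged from 0.183 to 0.966. The median log2 fold change over the 9 members was -0.11, beside -0.02 over all tested genes, with 4 members above 0 and 5 below. In bulk RNA, fewer cells of a kind and less RNA per cell cannot be told apart.

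Among the ligands, Pgf (chr12:85166635-85177790, minus strand) had 68.0, 112 and 8.86 CPM in the K794Q cultures and 3.85, 3.30 and 5.43 CPM in the WT cultures. Every K794Q culture lay above every WT culture, and culture C, the lowest of its group, was far nearer to the controls than A and B. Means were 63.0 ± 51.9 and 4.19 ± 1.11 CPM (SD, n = 3 cultures per group). This is a 14.9-fold difference, a log2 fold change of 3.90 (standard error 0.89, 95% interval 1.74 to 6.06, edgeR, adjusted p = 0.183). Leaving out each culture in turn gave 3.19 to 4.42, past both thresholds in all 6 fits, and the adjusted p lay between 7.54e-05 (DESeq2) and 0.659 (edgeR without WT culture B) over the 14 alternative fits, so the adjusted call depended on the tool. Pgf was also the 1 tested member whose groups did not overlap, beside 16.6% of all tested genes.

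Vegfc (chr8:54077606-54187096, plus strand) was set apart by a K794Q culture rather than by the group. It had 0.289, 88.1 and 1.98 CPM in the K794Q cultures, from 3, 893 and 23 counts, and 2.36, 3.00 and 2.02 CPM in the WT cultures. Culture B was high and culture A was at the floor of 3 counts, below all controls. With all cultures its log2 fold change reached 3.61 (standard error 1.80, interval -0.75 to 7.97, edgeR, adjusted p = 0.598). Leaving out K794Q culture B turned it to -1.09, and leaving out K794Q culture A gave 4.19, which passed both thresholds. With 0.5 CPM added, culture B was 25.3-fold above the nearest other culture, a distance that 4 of 11608 tested genes, Vegfc included, reached in that culture.

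Vegfa (chr17:46016993-46032369, minus strand), the main growth signal of the family, had 54.1, 52.8 and 19.3 CPM in the K794Q cultures and 50.6, 47.8 and 37.5 CPM in the WT cultures. The groups overlapped, with K794Q culture C the lowest of all. The log2 fold change was -0.11 with an interval from -1.08 to 0.86 (edgeR, adjusted p = 0.966), and it turned to 0.24 without that culture. Vegfb (chr19:6982473-6987651, minus strand) had 27.8, 16.8 and 22.4 CPM against 39.4, 35.7 and 17.1 CPM in the same order. Its WT culture C fell among the K794Q cultures while A and B lay above them, and the log2 fold change was -0.46 (interval -1.35 to 0.43, edgeR, adjusted p = 0.779), -0.73 without WT culture C and -0.28 without K794Q culture B. Figf (chrX:164373378-164402650, plus strand) had too few counts for the test. It had 2, 13 and 6 counts in the K794Q cultures and 1, 2 and 27 counts in the WT cultures, 3 of the 6 cultures being at or under 3 counts.

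**Figure D1:**
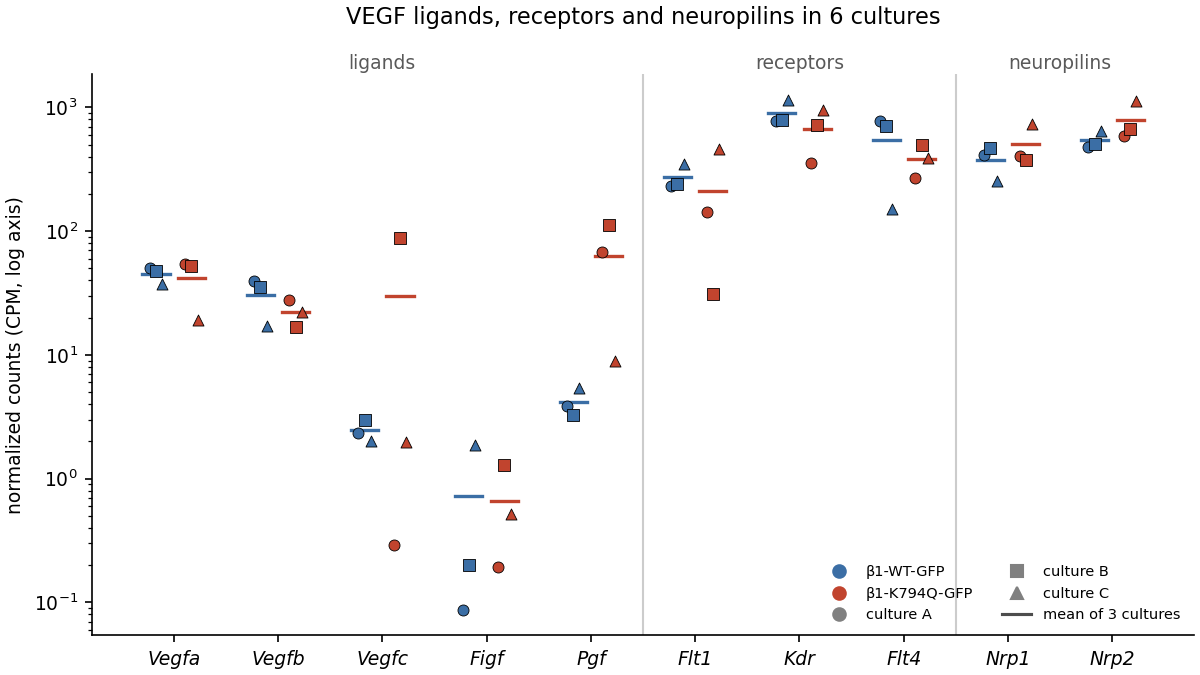
Normalized counts of each VEGF family gene in CPM on a log axis, with blue for β1-WT-GFP, red for β1-K794Q-GFP, a marker shape for each culture letter and a line at the mean of 3 cultures. The Pgf cultures of the groups do not overlap, while Vegfc is high in K794Q culture B (88.1 CPM) and Flt1 is low in it (31.3 CPM).

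The 3 receptors had lower group means in β1-K794Q-GFP cells, but none passed the test and the groups overlapped for each. Kdr (chr5:75932827-75978458, minus strand), the VEGF-A receptor with the strongest signal, had 353, 726 and 945 CPM in the K794Q cultures and 777, 798 and 1154 CPM in the WT cultures. Cultures A and B of β1-K794Q-GFP lay below all controls and culture C among them. The log2 fold change was -0.43 (standard error 0.41, interval -1.41 to 0.55, edgeR, adjusted p = 0.818), so a fall of more than 2-fold lies within the interval. Leaving out each culture gave -0.75 (without K794Q culture C) to -0.12 (without K794Q culture A), so the lower mean rested largely on culture A.

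Flt1 (chr5:147561604-147726011, minus strand), the receptor shared by VEGF-A, VEGF-B and placental growth factor, was the most uneven receptor. It had 142, 31.3 and 457 CPM in the K794Q cultures and 233, 241 and 351 CPM in the WT cultures. The K794Q cultures thus spread on both sides of the controls, with B the lowest and C the highest of all 6. The log2 fold change was -0.39 (standard error 0.84, interval -2.43 to 1.65, edgeR, adjusted p = 0.935), 0.13 without K794Q culture B and -1.67 without culture C. Culture B lay 4.47-fold below the nearest other culture, a distance reached downwards by 142 tested genes (1.22%) in it. By the same measure Kdr in K794Q culture A lay 2.05-fold below, reached by 37 tested genes (0.319%). Flt4 in WT culture C lay 1.78-fold below (4.07%) and Pgf in K794Q culture B 1.65-fold above (3.45%). The genes and cultures measured in this way were picked after their values were seen.

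Flt4 (chr11:49609263-49652739, plus strand), the receptor for VEGF-C and VEGF-D, had 268, 498 and 391 CPM in the K794Q cultures and 770, 709 and 150 CPM in the WT cultures. WT cultures A and B were the highest of all and culture C the lowest. The log2 fold change was -0.49 (standard error 0.61, interval -1.96 to 0.97, edgeR, adjusted p = 0.876). Leaving out 1 culture gave values from -0.16 (WT culture A) to -0.93 (WT culture C), the regional level in the offset gave -0.24, and leaving out WT culture C and K794Q culture B together gave -1.15, which passed both thresholds under a setting chosen after seeing the data. In WT culture C the 12 fibroblast and mural markers summed to 31.0 CPM, beside 0.787 to 3.85 CPM in the other cultures, with Pdgfra at 16.4 CPM and Dcn, Lum, Thy1 and Rgs5 at 0 counts in all cultures; their part in the Flt4 value was not tested. Prox1, the defining transcription factor of lymphatic endothelium, where Flt4 is best known, had 0 counts in all 6 cultures, and the 6 lymphatic markers summed to at most 5.13 CPM.

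The neuropilins had higher group means in β1-K794Q-GFP cells without passing the test. Nrp1 (chr8:128358604-128503363, plus strand), the co-receptor paired with VEGFR2, had 404, 373 and 738 CPM in the K794Q cultures and 409, 466 and 253 CPM in the WT cultures. Culture C was the highest of one group and the lowest of the other, and cultures A and B of K794Q lay below those of WT. The log2 fold change was 0.43 (interval -0.47 to 1.32, edgeR, adjusted p = 0.803), 0.05 without K794Q culture C and 0.22 without WT culture C. Nrp2 (chr1:62703285-62818695, plus strand), the co-receptor paired with VEGFR3, had 583, 670 and 1136 CPM against 479, 509 and 646 CPM. Only K794Q culture A fell within the range of the controls, and the log2 fold change was 0.55 (standard error 0.32, interval -0.23 to 1.32, edgeR, adjusted p = 0.669), 0.20 without K794Q culture C. An annotated antisense transcript, Gm29083, overlaps Nrp2 and the strand setting of the counting is not given in the sources used here, so its reads cannot be told apart from those of Nrp2.

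**Figure D2:**
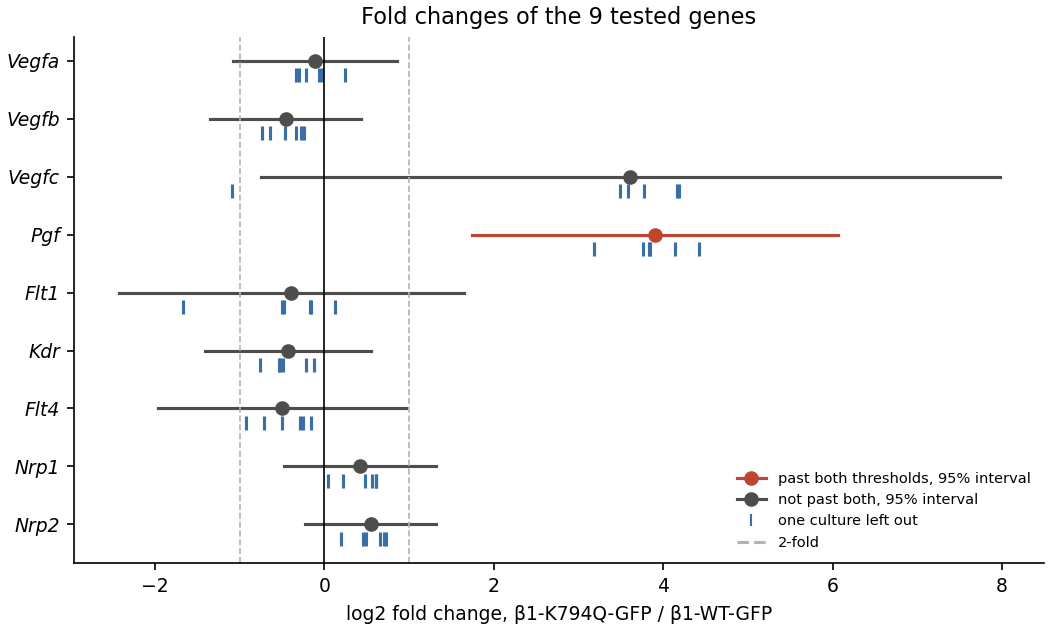
Log2 fold changes of the 9 tested genes, β1-K794Q-GFP over β1-WT-GFP, with 95% intervals, and blue ticks for the fits without 1 culture. Pgf (3.90) is the 1 gene past both thresholds, and for Vegfc 1 tick falls at -1.09, the fit without K794Q culture B.

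None of the 9 intervals lay wholly within 2-fold, so the 8 members that missed the thresholds are not shown to be equal between the groups. The spread was unequal between the groups. With 0.5 CPM added, the highest K794Q culture exceeded the lowest by 112-fold for Vegfc, 14.4-fold for Flt1 and 12.1-fold for Pgf, and these 3 members lay above 3.57-fold, the 90th percentile of all tested genes. In β1-WT-GFP cells 1 member, Flt4 (5.11-fold), lay above the corresponding 3.31-fold. The median spread of the members was 2.68-fold in β1-K794Q-GFP and 1.51-fold in WT cultures, beside 1.51-fold and 1.49-fold over all tested genes.

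Levels of different genes were compared per length, as CPM per kilobase of exon. In β1-WT-GFP cells the median levels ran from Kdr (88.4 CPM per kilobase) and Flt4 (86.1) through Nrp2 (42.9), Nrp1 (41.8), Vegfb (22.2), Flt1 (17.8) and Vegfa (11.2) to Pgf (1.33), Vegfc (0.964) and Figf (0.083). Among neighbours in that order, Nrp1 exceeded Vegfb, Flt1 exceeded Vegfa, Vegfa exceeded Pgf and Vegfc exceeded Figf in each of the 3 cultures, and the other neighbours crossed in at least 1 culture. In β1-K794Q-GFP cells the order was Kdr (80.4 CPM per kilobase), Nrp2 (56.6), Flt4 (47.4), Nrp1 (41.3), Pgf (23.4), Vegfb (14.0), Vegfa (12.3), Flt1 (10.5), Vegfc (0.808) and Figf (0.214), and the ranges over cultures overlapped for every pair of neighbours, although Vegfc exceeded Figf in each culture. With the length of the longest transcript instead, Nrp1 moved above Nrp2 and Flt1 above Vegfb in both groups.

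The make-up of the ligand pool followed from these values. Pgf took 43.7%, 39.5% and 13.5% of the summed ligand level per length in the K794Q cultures and 3.43%, 3.17% and 8.19% in the WT cultures. Its share was higher in each K794Q culture than in any control, and in culture B Vegfc took a further 36.7%, beside at most 3.61% in the other 5 cultures. Vegfb held the largest share in all 3 WT cultures (63.5%, 62.1% and 46.5%) and in K794Q culture C (62.0%). Among the receptors Kdr held 43.7% to 74.3% and Flt1 1.62% to 18.2%. The share of Flt4 was 10.6% in WT culture C and 25.5% to 47.5% in the others.

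**Figure D3:**
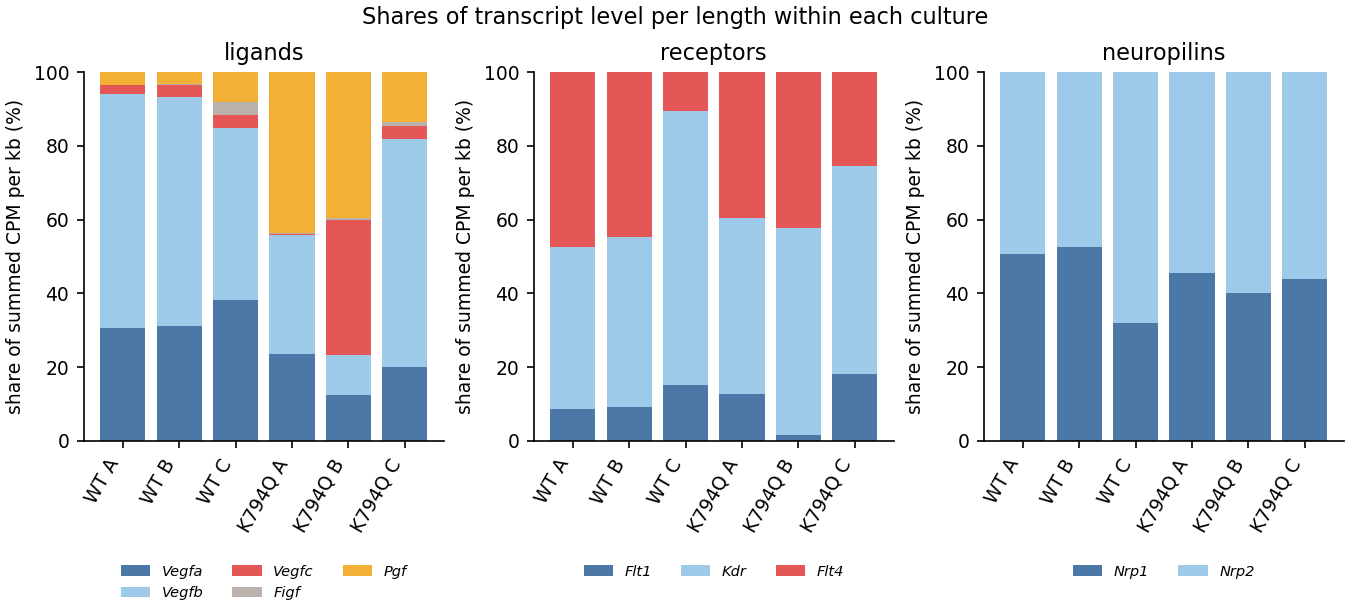
Share (%) of the summed CPM per kilobase of exon that each ligand, receptor and neuropilin took within a culture, 1 bar per culture. The Pgf segment is 13.5% to 43.7% in the K794Q cultures and 3.17% to 8.19% in the WT cultures, and the Vegfc segment is large in K794Q culture B.

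The summed levels per length were also compared by role, with an exact two-sided permutation test, which cannot go below p = 0.1 with 3 cultures against 3. Ligands summed to 53.6, 98.0 and 22.6 CPM per kilobase in the K794Q cultures and 38.7, 35.8 and 22.9 in the WT cultures, a log2 difference of 0.63 (exact permutation p = 0.5). Receptors summed to 82.1, 143 and 186 against 197, 192 and 172 CPM per kilobase, a log2 difference of -0.52 (exact permutation p = 0.2). Neuropilins summed to 90.5, 94.7 and 171 against 82.3, 90.6 and 80.4, a log2 difference of 0.43 (exact permutation p = 0.2). The groups were not separated for any role: ligands were lowest in K794Q culture C though highest in B, receptors of K794Q culture C lay among the controls, and neuropilins of K794Q culture A lay just within their range. Leaving out 1 culture moved the ligand difference from 0.14 (without K794Q culture B) to 1.20 (without K794Q culture C). The receptor difference moved from -0.78 (without K794Q culture C) to -0.19 (without K794Q culture A). The neuropilin difference moved from 0.13 (without K794Q culture C) to 0.60 (without K794Q culture A).

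Ratios within a culture do not depend on its normalization. Pgf counts were 1.26, 2.13 and 0.461 times those of Vegfa in the K794Q cultures and 0.0769, 0.0700 and 0.146 times in the WT cultures. The groups did not overlap, and the mean log2 ratio was 3.54 higher in β1-K794Q-GFP cells, the smallest p this design allows being reached (exact permutation p = 0.1). The Flt1 to Kdr ratio was nearly constant in the WT cultures, at 0.300, 0.302 and 0.304, and was 0.401, 0.0432 and 0.484 in the K794Q cultures. Cultures A and C thus lay above and culture B below all controls, the log2 difference was -0.57 (exact permutation p = 1), and it was 0.55 without culture B. The Nrp2 to Nrp1 ratio was 1.44, 1.80 and 1.54 in K794Q cultures and 1.17, 1.09 and 2.56 in WT cultures, with culture C of the controls above all others (log2 difference 0.10, exact permutation p = 1). Without WT culture C the log2 difference was 0.49.

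**Figure D4:**
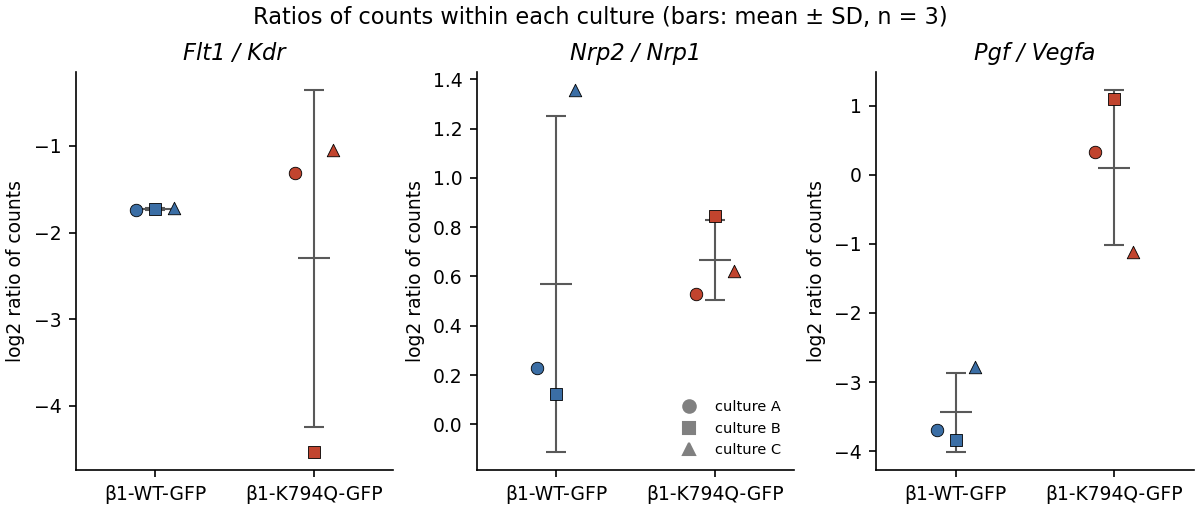
Log2 ratios of counts within each culture for Flt1 to Kdr, Nrp2 to Nrp1 and Pgf to Vegfa, as points by culture with mean ± SD of 3 cultures. The Flt1 to Kdr points of β1-WT-GFP coincide near -1.73, while K794Q culture B lies at -4.53, and the Pgf to Vegfa points of the groups are apart.

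The rest of the VEGF pathway was described by 6 lists with 121 genes, 103 of which could be tested. Past both thresholds, 7 of these were above and 2 below the WT level in the mutant, 8.74% in all beside 5.19% of all tested genes, and 0 passed after adjustment in edgeR's quasi-likelihood test. At an unadjusted p of 0.05 there were 16 of any fold, and DESeq2 called 5 after adjustment (Ets1, Mef2c, Foxc2, Hlx and Dusp4). The median log2 fold change over the 103 genes was 0.09, and 16 of the 103 did not overlap between the groups, beside 16.6% of all tested genes.

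Transcription factors that act on the receptor genes held 3 of these calls among 15 tested, beside 5.19% of all tested genes. Ets1, an ETS factor of angiogenic endothelium, had 427, 451 and 723 CPM in the K794Q cultures and 201, 214 and 217 CPM in the WT cultures. Its groups did not overlap (log2 fold change 1.34, standard error 0.26, edgeR, adjusted p = 0.139). Mef2c, a MADS-box factor of endothelial and muscle cells, had 434, 570 and 342 CPM against 195, 215 and 136 CPM and a log2 fold change of 1.30 (standard error 0.29, edgeR, adjusted p = 0.169). Foxc2, a forkhead factor of lymphatic and arterial vessels, was lower, with 3.66, 4.34 and 3.87 CPM against 12.4, 13.6 and 33.7 CPM and a log2 fold change of -2.33 (standard error 0.45, edgeR, adjusted p = 0.136). All 3 kept their calls whichever culture was left out (6 fits), and without WT culture C and K794Q culture B together Mef2c had 0.94, under 2-fold.

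Among 9 tested genes of ligand control and processing, Epas1, which encodes the hypoxia-inducible factor HIF-2α, had 400, 563 and 1014 CPM against 184, 201 and 448 CPM. Its log2 fold change was 1.25 (standard error 0.50, edgeR, adjusted p = 0.468), but WT culture C overlapped the other group and the call held in 2 of 6 fits without 1 culture. Ptprj, a receptor phosphatase that acts on VEGFR2, was the 1 call of 16 receptor partners and regulators, with 103, 56.7 and 55.5 CPM against 32.1, 47.8 and 25.6 CPM. Its log2 fold change was 1.03 (standard error 0.35, edgeR, adjusted p = 0.372), and the call held in 3 of 6 such fits. Over all tested genes 5.19% passed both thresholds in edgeR, so lists this short would hold few calls at that share. Of 12 neuropilin partners and 34 genes of signalling below the receptors, 0 passed both thresholds in edgeR or in DESeq2, with 1 and 2 at an unadjusted p of 0.05 in edgeR. The most abundant of them were the semaphorin receptor Plxnd1, with a log2 fold change of -0.0040, the semaphorin Sema3a (0.66), the endothelial nitric oxide synthase gene Nos3 (0.23) and the scaffold gene Iqgap1 (-0.09).

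Of 17 tested genes known to be induced by VEGF, 3 passed both thresholds as higher and 1 as lower, beside 3.48% and 1.71% of all tested genes, and 13 did not pass. Hlx, a homeobox gene, had 74.9, 101 and 19.95 CPM against 18.6, 16.0 and 14.0 CPM (log2 fold change 2.01, standard error 0.57, edgeR, adjusted p = 0.277), and Adamts1, a secreted protease, had 271, 604 and 221 CPM against 137, 149 and 150 CPM (1.33, standard error 0.40, adjusted p = 0.305). The groups of both genes did not overlap. For Hlx, as for Pgf, cultures A and B of β1-K794Q-GFP exceeded culture C. Adamts1 stood out mainly in K794Q culture B (log2 fold change 0.76 without it), with culture A near culture C. Nr4a2, an orphan nuclear receptor, had 12.8, 12.04 and 5.25 CPM against 2.89, 4.40 and 5.36 CPM (1.25, standard error 0.44, edgeR, adjusted p = 0.402), with K794Q culture C among the controls. Dusp4, a phosphatase of MAP kinases, was lower, with 114, 66.9 and 82.7 CPM against 168, 168 and 215 CPM (-1.06, standard error 0.25, edgeR, adjusted p = 0.190). The call held in 6 of 6 fits without 1 culture for Hlx, in 4 for Adamts1 and Dusp4 and in 2 for Nr4a2, and without both WT culture C and K794Q culture B those of Hlx (1.47), Adamts1 (0.79) and Dusp4 (-0.76) were lost. Egr1, Apln and Ptgs2 of this list, named after their values were seen, were highest in WT culture C and did not pass in the main fit. Egr1, an immediate-early gene, had 318 CPM there and 1.72 to 7.11 CPM in the other cultures. Its log2 fold change was -4.89 and ranged from -5.82 to 0.44 without 1 culture. Egr1 passed both thresholds in 2 of those 6 fits and in edgeR's likelihood ratio test. Apln had 305, 393 and 649 CPM against 35.6, 41.2 and 1096 CPM. Its log2 fold change was 0.20 and ranged from -0.34 to 3.56 without 1 culture. Ptgs2 had 315 CPM in WT culture C and at most 123 CPM elsewhere, with a log2 fold change of -1.07 (-2.57 to 2.14 without 1 culture).

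**Figure D5:**
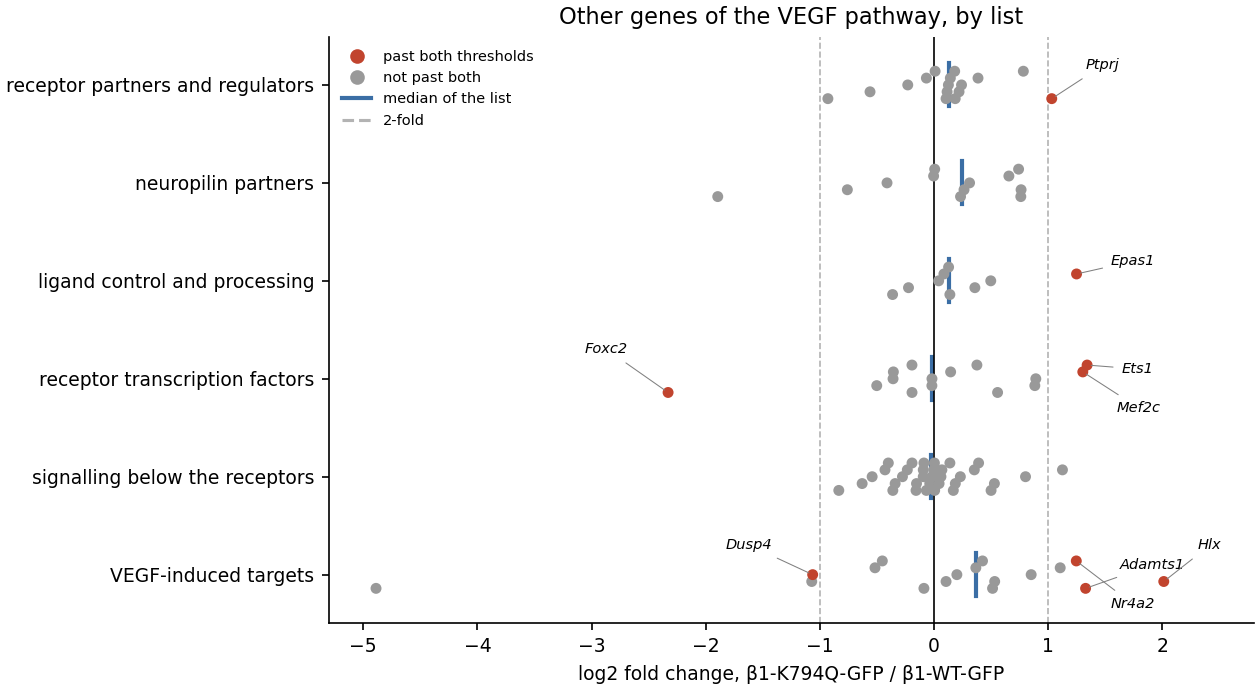
Log2 fold changes, β1-K794Q-GFP over β1-WT-GFP, of the 103 tested genes in 6 lists of the VEGF pathway, with red points for genes past both thresholds and a blue bar at the median of each list. The 9 red points are 7 higher and 2 lower genes, and the far left point of the VEGF-induced targets is Egr1, high in WT culture C.

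Around the 10 members, the running median of 25 neighbouring tested genes, taken against the WT mean, lay between -0.40 and 0.23 on the log2 scale in every culture. Both ends fell in WT culture C, -0.40 around Flt4 and 0.23 around Kdr. In that culture Flt4 was the lowest and Kdr the highest of all cultures, and a link between the regional and the gene values was not tested. Of the 40 nearest genes of the table, 2 on each side of a member, 27 could be tested. Beside 5.19% of all tested genes, 1 of these 27 passed both thresholds. It was Pard3, a polarity gene before Nrp1, with 38.5, 54.6 and 47.4 CPM in the K794Q cultures and 5.25, 5.80 and 22.1 CPM in the WT cultures (log2 fold change 2.07, edgeR, unadjusted p = 0.0125). Next to Pgf, Dlst, Eif2b2 and Mlh3 had log2 fold changes of 0.14, 0.16 and -0.17. The fourth gene beside it, Rps6kl1, had 14.8 CPM in K794Q culture B and at most 0.525 CPM elsewhere. Beside Figf, Pir had 10.1 CPM in K794Q culture B and 0 counts in the other 5.

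Patterns over the 6 cultures were compared as log2 CPM centred on each gene, among 10168 tested genes of at least 5 CPM on average. The gene nearest to Pgf was Lrrc32, a transforming growth factor β docking protein, with 543, 715 and 114 CPM in the K794Q cultures and 60.4, 72.0 and 125 CPM in the WT cultures, at a root mean square difference of 0.63 and a Pearson r of 0.986 over 6 cultures. Cmah, which had 31.7 CPM in K794Q culture B and at most 3.18 CPM elsewhere, and Tmem252 followed. Cmah reached an average of 5 CPM only through K794Q culture B, where Pgf was also highest, so the choice itself fixed that height. Nearest to Vegfc were Sox9 (0.54), 4632428N05Rik and Pclo. Each reached an average of 5 CPM only through K794Q culture B, so the choice itself fixed that they are high there. Nearest to Flt1 were Trim47 (0.27), Col27a1 and Olfml2a, each lowest in that culture. For Kdr these were Filip1l (0.14), Kctd10 and Etv6, for Flt4 Prr5l (0.16), Ccdc88c and Fam171a2, for Nrp1 Fam102a (0.11), Smarca2 and Hdac10, and for Nrp2 B9d1 (0.11), Lpcat1 and Cdkn2c. For Vegfa they were Apbb2 (0.14), Capg and 1700017B05Rik, and for Vegfb Plgrkt (0.07) and Prpf40b. These genes were picked for their likeness and share libraries with the members, so the values are a description.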

How the data were processed

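Total RNA of 6 eEnd2 cultures, 3 per group, was sequenced after ribosomal RNA depletion. The deposited values are counts of reads per gene symbol, not normalized; the submitters' processing notes list bcl2fastq 2.20.0, STAR 2.7.4a, HTSeq 0.9.1, edgeR 3.38.4 and build mm10 (GRCm38), and the annotation, strand setting and filters are not given in the sources used here. Groups came from the sample titles. The counts entered edgeR 4.0.16 under R 4.3.3 (filterByExpr, TMM, quasi-likelihood F-test, common dispersion 0.186, 11608 genes) with the thresholds of the study, a fold of 2 and an unadjusted p of 0.05, and Benjamini-Hochberg adjustment over all tested genes. Standard errors were the log2 fold change divided by the root of F. CPM are counts scaled by TMM-normalized library size. Exon lengths and positions came from GENCODE M21, with 21777 symbols matched directly and 1260 through synonyms. Ratios had 0.5 counts added and were compared by exact permutation tests. The fits were tested on simulated counts with the same dispersion for every gene and cultures drawn alike within a group. Such counts cannot show how the fits behave with cultures as uneven as these. The named genes were the 10 members, the pathway genes past both thresholds (for a list with none, its most abundant pair), the nearest neighbours and the 3 most alike genes of each member, 1 of which is not reported here. The members and lists were chosen with earlier results of these data known. Totals differ by less than a factor of 2, and rates from few counts are the least precise. Alternatives were other normalization (RLE), filters, tests (DESeq2 1.42.0, edgeR's likelihood ratio test), a culture-letter block, a regional offset and leaving out cultures. The chi-square between cultures A and B of β1-WT-GFP was 10.0 for each degree of freedom, and they stayed separate samples. Independence of the pair cannot be read from that chi-square. Standard errors, intervals and p-values, those of the permutation tests included, treat this close pair as full replicates. They may therefore understate the uncertainty of the WT group.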

Additional observations from a re-analysis of the deposited data

How the results depend on the processing

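The call of Pgf held under all 14 planned and added fits, with log2 fold changes of 3.19 to 4.42 without 1 culture. Among all tested genes 603 passed both thresholds, 916 without a filter on low counts, and 501 to 1661 without 1 culture or with WT culture C and K794Q culture B both left out (942 without the latter alone, 992 without the former). Of the members 2 passed with the likelihood ratio test, where Vegfc joined Pgf, and 1 to 2 without cultures; DESeq2 gave Vegfc no p. Of the pathway genes 8 to 16 passed without cultures, 16 without WT culture C. Over these fits without cultures, of the members and the pathway genes named by the fixed rule, these took both signs on the log2 scale: Vegfa -0.41 to 0.24, Vegfc -1.19 to 4.19, Flt1 -1.67 to 0.35, Plxnd1 -0.35 to 0.28, Sema3a -0.27 to 1.08, Nos3 -0.25 to 0.57 and Iqgap1 -0.32 to 0.37. Plxnd1 (-0.0040) also became 0.0017 with RLE or DESeq2 and 0.11 with the regional offset. The log2 ratio of Flt1 to Kdr became 0.55 without K794Q culture B (range -1.20 to 0.55) and that of Nrp2 to Nrp1 -0.07 and -0.13 without WT cultures A and B (range -0.13 to 0.49). Ptprj fell under 2-fold with the regional offset (0.99). The causes were not tested. Whether culture letters pair the groups was not settled. Same-letter deviations correlated weakly, at 0.095 (A), 0.055 (B) and 0.095 (C). K794Q culture A correlated alike with WT cultures A (0.0947) and B (0.0954). K794Q cultures B and C correlated best with the WT culture of their own letter. With the letter as a block 571 of all tested genes and 8 pathway genes passed, Pgf had 3.42, Vegfc 0.70, Flt1 -1.05, Flt4 -0.24 and Vegfa -0.23, and Nr4a2 lost its call (1.19). With 3 cultures per group, none of the 9 member intervals lay within 2-fold.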
